A study of Homo sapiens with 4 samples.

Results

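Nuclear receptors were followed through RNA of 2 liver cancer lines in which COP1, a ubiquitin ligase, was knocked down. The group holds 37 nuclear receptor genes and 2 co-regulators, PPARGC1A and NCOR1. They are 39 of the 46427 genes in the tables, taken as a list of gene names, and each was found by its gene number. Huh7 and HepG2 are established lines that the labels describe as hepatocellular carcinoma. Cells of each line received 20 nM of either a negative control siRNA (NC-siRNA) or an siRNA against COP1 (COP1-siRNA) and were collected after 48 h, which makes 4 groups of 1 library. Neither line carried an engineered allele, so the NC-siRNA libraries are transfected wild-type cells and the COP1-siRNA libraries are the same line with a transient, partial knockdown. Polyadenylated RNA was sequenced with a strand-specific kit, and the labels give all 4 libraries the same batch.

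Nuclear receptors are transcription factors that bind a small lipophilic ligand, such as a steroid, a bile acid, an oxysterol, a fatty acid, a retinoid or thyroid hormone, and then bind short DNA elements. Many of them bind as a dimer with a retinoid X receptor (RXR). In hepatocytes they set bile acid, cholesterol, fatty acid, glucose and drug metabolism, and orphan members act without a known physiological ligand. Without an activating ligand many receptors hold a co-repressor such as NCOR1, and with one they recruit co-activators such as PPARGC1A. RNA levels give neither the protein level nor the ligand-bound activity of a receptor.

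With 1 library per group there was no replicate error within a line, and no test was made of a difference within a line. Levels are given as TPM, the share of a library's transcripts corrected for gene length, and where a line has a pair of values the NC-siRNA library comes first. Differences are log2 of the ratio of TPM + 1, which understates the fold of genes near 1 TPM. A gene counted as tested in a comparison if it reached 1 TPM in at least 1 of its libraries, and as past the threshold at a 2-fold difference on that scale. COP1 itself was at 19.7 and 6.18 TPM in Huh7 with NC-siRNA and COP1-siRNA, and at 26.9 and 16.1 TPM in HepG2. The COP1-siRNA library thus held 31.4% of the control level of COP1 in Huh7 and 59.9% in HepG2, so the knockdown was the deeper in Huh7. The relative depth of the libraries ranged from 5.75 to 7.47. It was read near the upper end of coverage per unit of FPKM over the genes above 1 TPM. All 9 markers of hepatocyte-derived cells (ALB, AFP, APOB and others) reached 1 TPM in every library, and their summed level was 20906 to 23687 TPM in Huh7 and 3497 to 4077 TPM in HepG2. None of the 4 fibroblast, 3 endothelial and 4 blood cell markers reached 1 TPM in all libraries. LUM was at 121 TPM in both Huh7 libraries, the endothelial markers summed to 0.165 to 7.36 TPM and the blood cell markers to 1.01 to 4.47 TPM, with PTPRC and CD3E at 0 throughout.

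The liver lines expressed most of the receptor family. Of the 39 members, 29 reached 1 TPM in all 4 libraries and 12 reached 10 TPM in all 4. In Huh7, 29 members reached 1 TPM with NC-siRNA and 30 with COP1-siRNA, against 35 in both HepG2 libraries. NR2F6, an orphan receptor of the COUP-TF group, had the highest TPM of the 39 in each library, at 138 and 129 TPM in Huh7 and 61.6 and 55.4 TPM in HepG2. After it, Huh7 with NC-siRNA ranked NR1H4, PPARG, RXRA, NR5A2 and NCOR1, and HepG2 with NC-siRNA ranked NR2F2, NCOR1 and NR2F1. NR1H4 stood at rank 22 and NR5A2 at rank 35 in HepG2. With 1 library each, no spread was available to say which neighbours in these orders differ. The 39 genes summed to 737 and 697 TPM in Huh7 and to 460 and 479 TPM in HepG2.

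**Figure D1:**
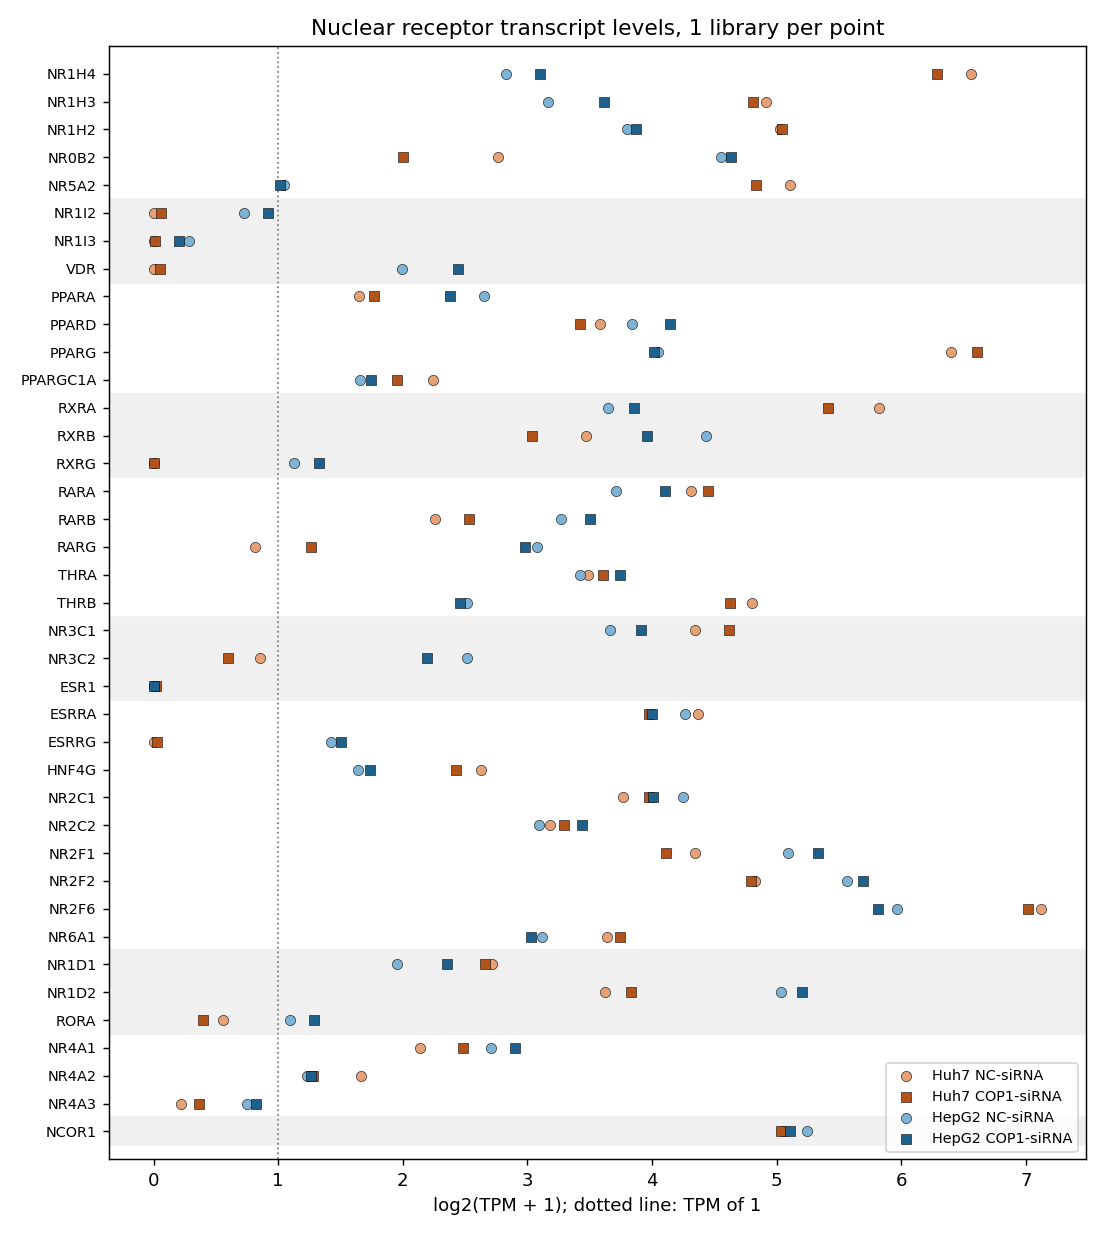
Level of each nuclear receptor gene and co-regulator as log2(TPM + 1), with 1 point per library (Huh7 in orange and HepG2 in blue, circles for NC-siRNA and squares for COP1-siRNA) and a dotted line at 1 TPM. The points of a line lie close together for most genes, while the lines stand far apart for NR5A2, NR1H4 and PPARG.

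At the other end, 4 members stayed under 1 TPM in all libraries. They were NR1I2 and NR1I3, the xenobiotic receptors PXR and CAR, with NR4A3, an inducible orphan receptor, and ESR1, oestrogen receptor alpha. PXR was listed at 0 in Huh7 with NC-siRNA and at 0.0411 TPM with COP1-siRNA, against 0.651 and 0.885 TPM in HepG2. CAR reached at most 0.219 TPM, in HepG2 with NC-siRNA. ESR1 was listed at 0 in 3 libraries and at 0.0125 TPM in Huh7 with COP1-siRNA. Both xenobiotic receptors and ESR1 were therefore among the lowest of the family, and no fold was formed for them. RXRG, ESRRG and VDR were also listed at 0 in Huh7 with NC-siRNA.

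After COP1-siRNA no member passed 2-fold in either line. In Huh7 this was 0 of 30 members tested, where 1.08% of all 13000 genes tested passed, and in HepG2 0 of 35, where 0.934% of 14456 passed. A count of 0 in lists this short is near that background and does not set the receptors apart. At 1.5-fold, 1 of 30 members passed in Huh7, which is NR0B2 (3.33% of those tested, beside 5.48% of all genes), and 0 of 35 in HepG2 (beside 4.43%). The median log2 difference of the members was -0.04 in Huh7, with 13 above 0 and 17 below, and 0.10 in HepG2, with 23 above and 12 below. The medians over all genes tested were near 0 in both lines, at -0.001 and -0.01. The median size of the difference, whatever its sign, was 0.21 in Huh7 and 0.20 in HepG2 for the members, beside 0.15 and 0.14 for all genes. Of the 30 members tested in both lines, 14 had the same sign in both (46.7%), where 60.2% of all genes tested in both had. An additive fit of line and siRNA over all 4 libraries (limma), which takes the lines as replicates of the siRNA and leaves 1 residual degree of freedom, called 0 of 35 members for the siRNA at an adjusted p under 0.05, beside 0% of 15486 genes. At an unadjusted p under 0.05 it called 3 of 35, beside 10.8% of all genes. These were RXRB, with a mean log2 difference of -0.45 ± 0.11 (SE) and a limma adjusted p of 0.226, ESRRA at -0.33 ± 0.10 (SE; adjusted p of 0.331) and NR3C1 at 0.26 ± 0.099 (SE; adjusted p of 0.436). In this fit a response that differs between the lines counts as error. As the RNA is from whole cultures, fewer cells with a transcript and less of it per cell cannot be told apart.

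**Figure D2:**
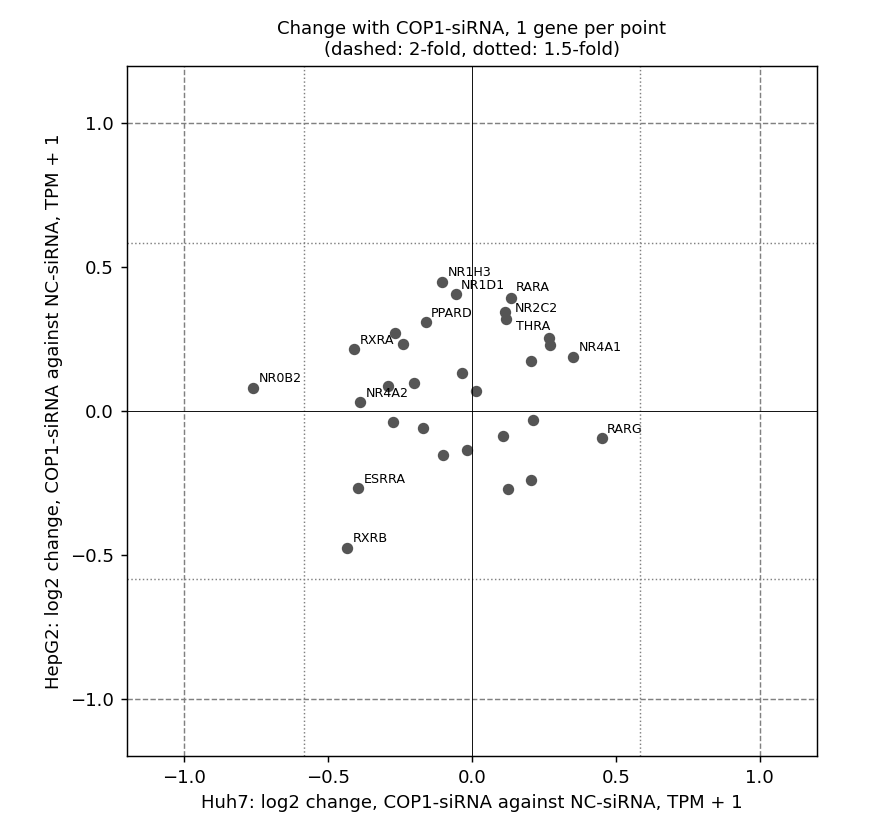
Log2 difference COP1-siRNA minus NC-siRNA on the TPM + 1 scale, in Huh7 on the horizontal and in HepG2 on the vertical axis, with 1 point for each of the 30 members tested in both lines, dashed lines at 2-fold and dotted lines at 1.5-fold. NR0B2 in Huh7, at -0.76, lies farthest from 0, and RXRB is below 0 in both lines.

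The bile acid receptor NR1H4 and the orphan receptor NR5A2 showed the widest contrasts between the lines. NR1H4 (FXR, gene number 9971, at 100473866 to 100564414 of the plus strand of chromosome 12, GRCh38) is the nuclear receptor for bile acids. Its level was 93.2 TPM in the control and 77.3 TPM in the knockdown library of Huh7, and 6.11 and 7.57 TPM in HepG2. The Huh7 level was 15.2 times the HepG2 level with NC-siRNA and 10.2 times with COP1-siRNA, and within each line the siRNA groups differed far less, by -0.27 and 0.27 on the log2 scale. NR5A2 (LRH-1, gene number 2494, at 200027710 to 200177424 of the plus strand of chromosome 1) is an orphan receptor known for driving bile acid synthesis genes. It was at 33.5 and 27.6 TPM in Huh7 and at 1.07 and 1.02 TPM in HepG2, a ratio of 31.4 with NC-siRNA and 27.2 with COP1-siRNA. This was the largest ratio between the lines of any member with at least 1 TPM in both.

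NR0B2 (SHP, gene number 8431, at 26911489 to 26914110 of the minus strand of chromosome 1) lacks a DNA-binding domain and represses other receptors, LRH-1 among them. Its own gene is a classical target of FXR. Its level was 5.80 TPM in the control and 3.01 TPM in the knockdown library of Huh7, and 22.5 and 23.8 TPM in HepG2. NR0B2 was thus the lower in Huh7, the line with the higher NR1H4 and NR5A2, by 3.88 times with NC-siRNA and 7.91 times with COP1-siRNA. In Huh7 the COP1-siRNA library held 0.520 of the control TPM of NR0B2, a log2 difference of -0.76, while in HepG2 the difference was 0.08. With FPKM in place of TPM the Huh7 difference was -0.56, which is under 1.5-fold, so that no member is past it. The pseudocount of 1 was kept there, so this setting also changes the weight of the pseudocount. The plain TPM ratio gave -0.94. NR0B2 overlaps NUDC on the opposite strand, which was at 312 and 281 TPM in Huh7 and 255 and 268 TPM in HepG2. How reads of overlapping genes were divided is not given in the sources used here, so the level of NR0B2 is uncertain, and the part of NUDC in it was not tested. NUDC differed by -0.15 in Huh7 and 0.07 in HepG2. In all, 14 members overlap a gene of at least 1 TPM on the opposite strand, among them NR1D1, NR1D2, NR1H3, NR2C2, RARB, RXRB, THRA, ESRRA and NCOR1, and the same limit holds for them.

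Promoter sequence is shown for the members that differ most between the lines and have an element there. The element searched was AGGTCA, the half-site that many nuclear receptors bind, on both strands (TGACCT is its reverse complement), in the 250 bases before each start in RefSeq (GRCh38.p14). Capitals mark the match. The first sequence lies 84 bases before a start of NR5A2, at chr1:200027614-200027643. The sequence of NR1H4 lies 230 bases before one of its starts, inside the span of the gene given above, at chr12:100503118-100503147. PPARG has a pair of matches, 217 and 184 bases before its first start, at chr3:12287139-12287168 and chr3:12287172-12287201, and a further one before a later start. That of NR1H3 lies 140 bases before the start, at chr11:47248148-47248177, and all are read along the plus strand.
NR5A2: atggtttacagcAGGTCActaatgttggaa
NR1H4: gagcatggcactTGACCTccaagtccagtt
PPARG, first match: cccactttggacAGGTCAcgatggacagcg
PPARG, second match: caggaaaagaaaAGGTCActgtctacccaa
NR1H3: tggtttgcctatAGGTCAgaagcatcccct
A promoter was on file for 34 members, and 8 of them (23.5%) held AGGTCA before at least 1 start, namely these 4 with ESRRG, RARA, RARB and RXRG. Over all genes with a promoter the share was 14.6% of 27305. Counted per promoter, it was 11 of 80 for the members (13.8%) and 12.1% of 35116 in all. The 4 genes shown were the higher in Huh7, while ESRRG, RARB and RXRG were the higher in HepG2 with NC-siRNA, so the letters went with both directions. A match describes the sequence only and does not show binding.

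The sterol receptors NR1H2 (LXR beta) and NR1H3 (LXR alpha), which sense oxysterols, were also the higher in Huh7. NR1H2 was at 31.5 and 31.9 TPM in Huh7 and 12.9 and 13.6 TPM in HepG2. NR1H3 was at 29.2 and 27.1 TPM in Huh7 and 7.95 and 11.2 TPM in HepG2. Its log2 difference after COP1-siRNA was 0.45 in HepG2, the highest of the family there with VDR, and -0.10 in Huh7. From coverage in place of TPM the HepG2 difference was 0.20. NR1H3 overlaps ACP2 on the opposite strand.

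Among the fatty acid receptors, PPARG had the highest TPM in Huh7. PPARG (gene number 5468, at 12287368 to 12434344 of the plus strand of chromosome 3), best known from fat cells, was at 83.4 and 96.7 TPM in Huh7 and 15.5 and 15.2 TPM in HepG2. PPARA, the receptor that drives fatty acid oxidation in liver, was at 2.13 and 2.42 TPM in Huh7 and 5.29 and 4.22 TPM in HepG2. PPARD was at 10.98 and 9.71 TPM in Huh7 and 13.3 and 16.7 TPM in HepG2. PPARG therefore made up 86.4% of the summed PPAR TPM in Huh7 with NC-siRNA and 45.5% in HepG2, and PPARA 2.21% and 15.5%. From coverage PPARD was the higher in Huh7 with NC-siRNA, at 16.8 beside 7.29 for PPARG, so the shares depend on the measure. Coverage was not a constant multiple of TPM from gene to gene, and its definition could not be settled. An order of genes by coverage, here and below, may therefore not be an order of level. PPARG was 5.37 times higher in Huh7 with NC-siRNA and 6.37 times with COP1-siRNA. The co-activator PPARGC1A (PGC-1 alpha) was low, at 3.74 and 2.87 TPM in Huh7 and 2.15 and 2.34 TPM in HepG2.

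The retinoid X receptors, the shared dimer partners, came in different proportions in each line. RXRA (gene number 6256, at 134326455 to 134440586 of the plus strand of chromosome 9) was at 55.6 and 41.6 TPM in Huh7 and 11.5 and 13.5 TPM in HepG2. RXRB (gene number 6257, at 33193585 to 33200991 of the minus strand of chromosome 6) was at 10.1 and 7.19 TPM in Huh7 and 20.7 and 14.6 TPM in HepG2. RXRG was listed at 0 in both Huh7 libraries and was at 1.18 and 1.51 TPM in HepG2. RXRA thus held 84.7% of the summed RXR TPM in Huh7 and 34.5% in HepG2 with NC-siRNA, and RXRB 15.3% and 62.0%. With COP1-siRNA the RXRA share was 85.3% in Huh7 and 45.6% in HepG2. RXRB was lower with COP1-siRNA in both lines, at 0.714 and 0.706 of the control TPM, which is a log2 difference of -0.43 in Huh7 and -0.48 in HepG2, under the threshold in each. The RXRA difference was -0.41 in Huh7 and 0.21 in HepG2. RXRB overlaps SLC39A7 on the opposite strand, which was at 115 and 101 TPM in Huh7 and 99.7 and 110 TPM in HepG2.

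**Figure D3:**
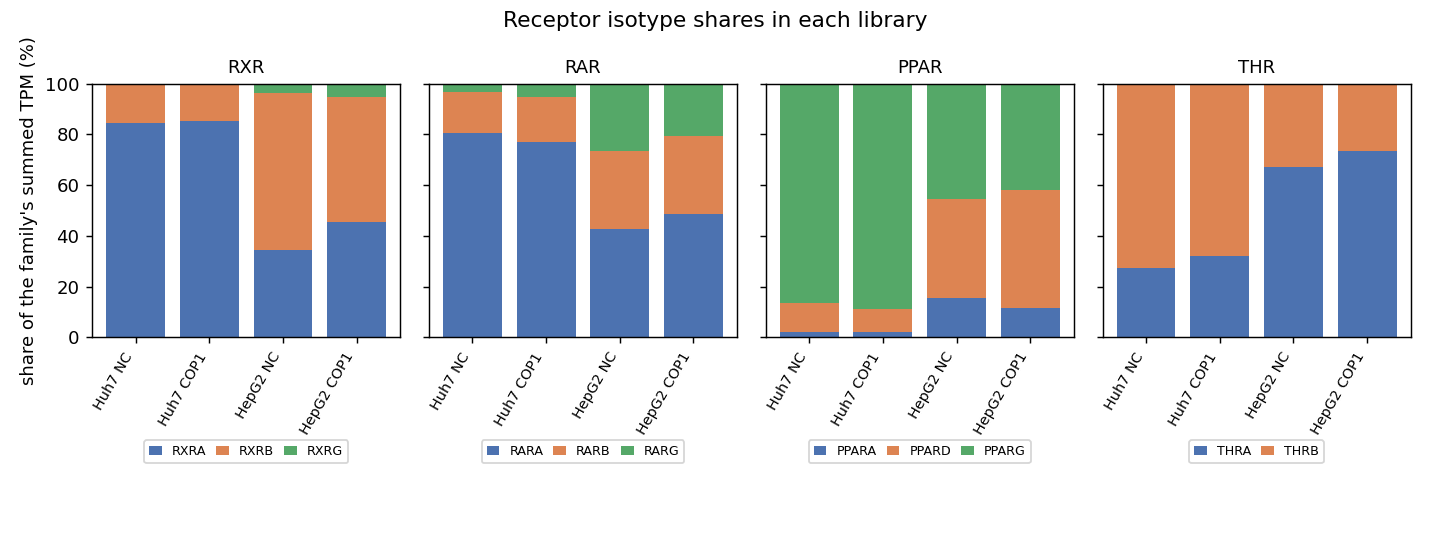
Share of each isotype in the summed TPM of its receptor family, in percent, with 1 bar per library for the retinoid X (RXR), retinoic acid (RAR), PPAR and thyroid hormone (THR) receptors. RXRA makes up 84.7% of RXR TPM in Huh7 and 34.5% in HepG2 with NC-siRNA, and THRB 72.5% and 32.7% of thyroid hormone receptor TPM. From coverage THRA was above THRB in every library.

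The retinoic acid receptors summed to similar totals, from 23.5 to 33.4 TPM in the 4 libraries, with a different make-up. RARA was at 18.9 and 20.9 TPM in Huh7 and 12.1 and 16.2 TPM in HepG2. RARB was at 3.79 and 4.79 TPM in Huh7 and 8.65 and 10.3 TPM in HepG2. RARG was at 0.760 and 1.41 TPM in Huh7 and 7.43 and 6.89 TPM in HepG2. RARA held 80.6% of the family's TPM in Huh7 and 42.9% in HepG2 with NC-siRNA, and RARG 3.24% and 26.4%. From coverage RARG was above RARA in HepG2 with NC-siRNA, at 7.32 and 5.03. RARG had the highest log2 difference of the members after COP1-siRNA in Huh7, 0.45. It was under 1 TPM with NC-siRNA there, so the filter admitted it only through the library where it is high. The difference was 0.22 from coverage and 0.81 with a pseudocount of 0.1, so this low gene moves with the scale. VDR, the vitamin D receptor (gene number 7421, at 47841537 to 47905022 of the minus strand of chromosome 12), was listed at 0 and at 0.0349 TPM in Huh7 and was at 2.97 and 4.44 TPM in HepG2. Its presence above 1 TPM was thus limited to the HepG2 libraries.

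Both thyroid hormone receptors were expressed. THRB (gene number 7068, at 24117153 to 24495708 of the minus strand of chromosome 3), the liver's main isotype, was at 26.8 and 23.7 TPM in Huh7 and 4.72 and 4.49 TPM in HepG2. THRA was at 10.2 and 11.2 TPM in Huh7 and 9.72 and 12.4 TPM in HepG2, and its libraries overlapped between the lines. By TPM, THRB made up 72.5% of the pair in Huh7 with NC-siRNA and 32.7% in HepG2. From coverage THRA was the higher in both lines with NC-siRNA, at 6.32 beside 3.46 for THRB in Huh7 and 5.87 beside 0.672 in HepG2. The order in Huh7 thus differed between the measures, of which coverage may not compare between genes. THRA shares sequence with NR1D1 on the opposite strand, and its level is uncertain to that extent.

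Of the steroid receptors, the mineralocorticoid receptor differed between the lines by over 2-fold and the glucocorticoid receptor did not. NR3C1, the glucocorticoid receptor, was at 19.3 and 23.5 TPM in Huh7 and 11.6 and 14.0 TPM in HepG2, with log2 differences after COP1-siRNA of 0.27 and 0.25. NR3C2, the mineralocorticoid receptor, was at 0.809 and 0.509 TPM in Huh7 and 4.71 and 3.57 TPM in HepG2, with differences of -0.26 and -0.32. The glucocorticoid receptor was the higher with COP1-siRNA in both lines, under the threshold in each. The mineralocorticoid receptor was under 1 TPM in both Huh7 libraries, so it was not tested for the siRNA there. Its contrast between the lines was tested through HepG2 alone. In HepG2 it was the lower with COP1-siRNA, under the threshold. Of the oestrogen-related orphan receptors, ESRRA, a regulator of mitochondrial genes, was at 19.6 and 14.7 TPM in Huh7 and 18.2 and 14.96 TPM in HepG2. Its log2 differences were -0.40 and -0.27, and its Huh7 and HepG2 libraries overlapped. ESRRA overlaps TRMT112 on the opposite strand, at 244 and 270 TPM in Huh7 and 322 and 323 TPM in HepG2. ESRRG was listed at 0 and at 0.0202 TPM in Huh7 and was at 1.69 and 1.84 TPM in HepG2.

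Both REV-ERB receptors of the clock reached 1 TPM in all libraries, and RORA did so in HepG2. NR1D2 (REV-ERB beta), a repressor of the circadian clock, was at 11.3 and 13.2 TPM in Huh7 and 31.8 and 36.0 TPM in HepG2. NR1D1 (REV-ERB alpha) was at 5.55 and 5.30 TPM in Huh7 and 2.87 and 4.12 TPM in HepG2. RORA, which acts at the same elements as an activator, was at 0.474 and 0.314 TPM in Huh7 and 1.14 and 1.44 TPM in HepG2. NR1D2 thus had the higher TPM of the REV-ERB receptors in all 4 libraries. From coverage NR1D1 was the higher in Huh7, at 14.9 and 16.8 beside 11.5 and 15.8 for NR1D2. The E-box CACGTG, a palindrome that clock factors bind, occurs in 2 places before a start of NR1D2 that lies inside the gene's span, and both windows are shown because the gene carries the only pair among the clock receptors. They lie on the plus strand, 155 and 105 bases before that start, at chr3:23945954-23945983 and chr3:23946004-23946033, with the E-box in capitals.
NR1D2, first match: ggcgggcggggaCACGTGaggccgctcggc
NR1D2, second match: gggccgcagggaCACGTGggggcgggggcg
The E-box was found for 4 of 34 members (11.8%; NR1D2, NR2C1, NR2F2 and PPARGC1A), beside 7.73% of all genes with a promoter. Per promoter it was 4 of 80 for the members and 6.34% in all. NR1D1 has none in the windows searched.

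The orphan receptors of the COUP-TF group, which act mostly as repressors and compete for receptor elements, were among the most abundant. NR2F6 was the higher in Huh7, as given above. NR2F2 was at 27.4 and 26.7 TPM in Huh7 and 46.2 and 50.7 TPM in HepG2, and NR2F1 at 19.4 and 16.3 TPM in Huh7 and 33.2 and 39.2 TPM in HepG2. NR2F1 and NR2F2 therefore lay in the opposite direction to NR2F6 between the lines. The testicular receptors NR2C1 and NR2C2 ranged from 7.53 to 18.1 TPM, with differences after COP1-siRNA between -0.24 and 0.34. NR6A1, an orphan receptor of germ cells and early embryos, was at 11.4 and 12.4 TPM in Huh7 and 7.66 and 7.16 TPM in HepG2. HNF4G, an orphan receptor of gut and liver, was at 5.17 and 4.37 TPM in Huh7 and 2.12 and 2.34 TPM in HepG2.

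The NR4A receptors are immediate early genes without a classical ligand. NR4A1 (NUR77) was at 3.39 and 4.61 TPM in Huh7 and 5.54 and 6.45 TPM in HepG2. NR4A2 (NURR1) was at 2.17 and 1.42 TPM in Huh7 and 1.35 and 1.40 TPM in HepG2. NR4A3 was under 1 TPM in all. NR4A1 had the highest TPM of the 3 in every library, and its differences after COP1-siRNA, 0.35 and 0.19, did not reach 1.5-fold. From coverage NR4A2 was the higher in Huh7, at 5.52 and 4.12 beside 2.14 and 3.47 for NR4A1.

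Between the lines with NC-siRNA, 9 of 35 members passed 2-fold with the higher value in HepG2 (25.7%, beside 27.9% of 15055 genes) and 8 with the higher value in Huh7 (22.9%, beside 14.7%). The members higher in HepG2 were NR0B2, NR1D2, NR3C2, PPARA, RARB, RARG, RXRG, ESRRG and VDR. Those higher in Huh7 were NR1H2, NR1H3, NR1H4, NR2F6, NR5A2, PPARG, RXRA and THRB. This split depended on the scale, as FPKM gave 5 and 8 and coverage gave 5 and 7, each with the pseudocount of 1 kept. RARG, NR3C2, RXRG, ESRRG and VDR were under 1 TPM in Huh7 with NC-siRNA and so were tested through HepG2 alone. Plain TPM ratios, with 1 TPM needed in both libraries, gave 5 and 9 of 29. The members just inside the threshold were PPARA at 1.00 and RARB at 1.01, and those just outside were HNF4G at -0.98 and RXRB at 0.97. The median over all genes was 0.37 in favour of HepG2 and that of the members -0.06. Median-of-ratios scaling put these medians at 0.14 and -0.30, and upper-quartile scaling put them at 0.46 and 0.03.

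**Figure D4:**
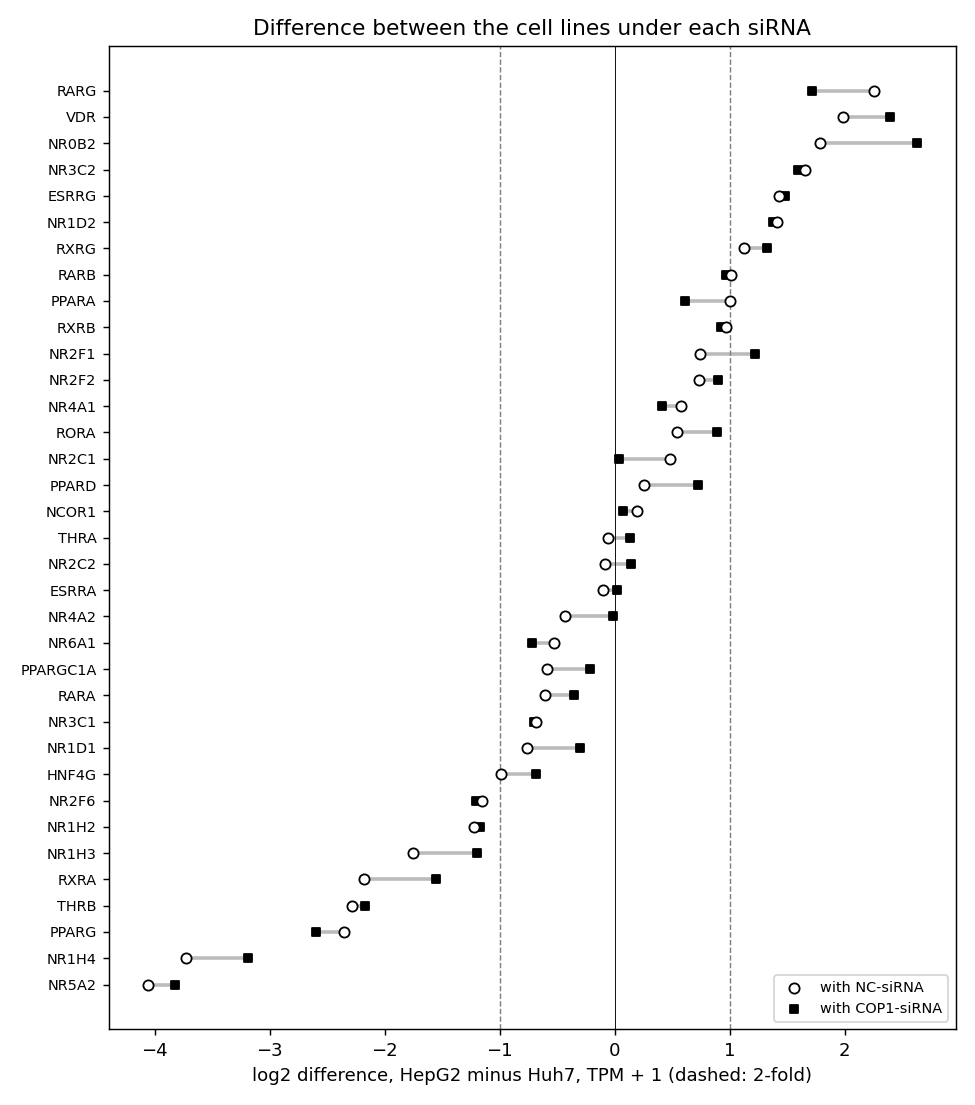
Log2 difference HepG2 minus Huh7 on the TPM + 1 scale for each of the 35 members tested, with NC-siRNA (open circles) and with COP1-siRNA (filled squares), each from 1 library per group, with dashed lines at 2-fold. NR5A2 at -4.06 and NR1H4 at -3.73 lie lowest with NC-siRNA, and RARG at 2.26 lies highest.

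With COP1-siRNA in both lines the same 8 members were higher in Huh7 (22.9%, beside 14.0% of 15126 genes), and 8 were higher in HepG2 (22.9%, beside 26.0%). NR2F1 entered the latter set, while PPARA at 0.61 and RARB at 0.97 were under 2-fold there. NR3C2, RXRG, ESRRG and VDR were under 1 TPM in Huh7 with COP1-siRNA too and so were tested through HepG2 alone. In all, 15 of 35 members passed in the same direction with both siRNAs (42.9%), where 36.5% of 14695 genes did. For 32 of 35 members the HepG2 libraries did not overlap those of Huh7 (91.4%, beside 88.2% of all genes), and the exceptions were THRA, NR2C2 and ESRRA. The 2 libraries of a line differ in siRNA and are not replicates. In the additive fit, which takes them as such, 28 of 35 members had a limma adjusted p under 0.05 for the line, beside 78.5% of all genes, and 29 an unadjusted one, beside 80.0%.

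Co-regulators, like all genes tested, differed between the lines more than between the siRNAs. NCOR1, the co-repressor that recruits histone deacetylase, was at 32.1 and 31.7 TPM in Huh7 and 36.9 and 33.5 TPM in HepG2. Of 20 further co-regulators, among them NCOA1 to NCOA3, MED1, EP300 and HDAC3, all were tested in both lines and 0 passed 1.5-fold after COP1-siRNA in either, near the 5.48% of all genes in Huh7 and 4.43% in HepG2 for a list this short. Between the lines with NC-siRNA 5 of the 20 were past 2-fold higher in HepG2 (SIRT1, HDAC3, NSD1, CARM1 and BRD8), beside 27.9% of all genes. In Huh7 1 of the 20, NCOA3, was past 2-fold higher, beside 14.7% of all genes. The Huh7 differences of the 20 after COP1-siRNA lay between -0.54 and 0.22 (median -0.07), and those of HepG2 between -0.18 and 0.21 (median 0.05). The lowest was NCOA3, a steroid receptor co-activator, at 23.7 and 16.0 TPM in Huh7. The co-regulators named for their differences were chosen after their values were seen.

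Some target genes of the receptors were past 1.5-fold after COP1-siRNA, and they were different genes in each line. Those of Huh7 were all lower there, and those of HepG2 were all higher there. Of the 93 listed co-regulator and target genes in the tables, 70 were tested in Huh7 and 75 in HepG2. In Huh7 0 passed 2-fold, and at 1.5-fold 0 were higher and 3 lower. All 3 are target genes, and they make 6.0% of the 50 targets tested, beside 5.48% of all genes. In HepG2 1 passed 2-fold, UGT1A1, which conjugates bilirubin, and at 1.5-fold 9 were higher and 0 lower. All 9 are target genes, and they make 16.4% of the 55 targets tested, beside 4.43% of all genes. Among the 9, KNG1, FETUB and ABCG1 were under 1 TPM with NC-siRNA and were tested only through the COP1-siRNA library. The share therefore leans in part on the filter. UGT1A1 was at 10.1 and 8.76 TPM in Huh7 and 3.42 and 8.83 TPM in HepG2, and as it shares exons with the other UGT1A genes its level is uncertain. The other genes named in the next paragraph were chosen after their values were seen.

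Among 8 FXR targets, 6 were tested in each line. In HepG2 3 of 6 were past 1.5-fold higher (beside 4.43% of all genes past it in either direction) and the median was 0.56. Of these, KNG1 and FETUB reached 1 TPM in HepG2 only with COP1-siRNA. The filter thus admitted them through the library where they are high. In Huh7 1 of 6 was lower (beside 5.48%) and the median was 0.03. FGF19, the bile acid feedback hormone, was at 8.73 and 4.57 TPM in Huh7 and listed at 0 in HepG2. Its Huh7 difference was -0.80. Of the other FXR targets tested in Huh7, SLC51B differed by -0.32 and OSGIN1 by -0.01. KNG1 differed by 0.07, ABCB4 by 0.13 and ABCB11 by 0.24 there. KNG1, the kininogen precursor, was at 26.4 and 27.7 TPM in Huh7 and 0.825 and 2.55 TPM in HepG2. FETUB, a fetuin secreted by liver, was listed at 0 in Huh7 and was at 0.534 and 1.69 TPM in HepG2. OSGIN1 was at 28.5 and 28.4 TPM in Huh7 and 7.49 and 11.8 TPM in HepG2. The FXR targets past 1.5-fold in HepG2 thus lay at 11.8 TPM or less there, and NR1H4 itself differed by 0.27. The PPAR targets had medians of 0.07 in Huh7 and 0.31 in HepG2 over 8 genes each. In this list CREB3L3, a liver transcription factor, was at 38.0 and 27.7 TPM in Huh7 and 2.62 and 4.74 TPM in HepG2. The medians of the LXR targets (-0.001 and 0.13), the PXR and CAR targets (-0.14 and 0.14) and the glucocorticoid receptor targets (0.03 and 0.08) all lay between -0.14 and 0.14. For the retinoic acid and vitamin D receptor targets they were -0.13 and 0.04, and for the clock list -0.16 and -0.05. In the clock list NFIL3, a repressor, was at 58.6 and 37.0 TPM in Huh7 and 16.8 and 12.01 TPM in HepG2, and in the glucocorticoid list ZBTB16 was at 3.66 and 2.06 TPM in Huh7. Further genes past 1.5-fold higher in HepG2 were the sterol exporter ABCG1 at 0.410 and 1.62 TPM and the transglutaminase TGM2 at 2.86 and 5.73 TPM. So were CYP24A1 at 3.49 and 6.18 TPM and DIO1, a deiodinase of thyroid hormone, at 7.88 and 12.3 TPM. CYP24A1, the vitamin D degrading enzyme, and VDR were thus both the higher with COP1-siRNA in HepG2, at differences of 0.68 and 0.45. Both are low genes with 1 library per group, and a link between them was not tested. Of the 4 thyroid hormone receptor targets, 1 was tested in Huh7, with a difference of -5.0e-05, and 2 in HepG2, with a median of 0.42.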

How the data were processed

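RNA of 4 libraries, 1 per cell line and siRNA, was measured by sequencing, and groups were taken from the sample titles. The authors deposited a gene table per library with a TPM, an FPKM and a coverage for each gene. The TPM that the authors deposited are scaled within a library to a fixed sum, the FPKM that they deposited are proportional to them, and the coverage that they deposited is not scaled for depth. Per the submitters' processing notes, FastQC 0.11.7, Trimmomatic 0.38, HISAT2 2.1.0 and StringTie 2.1.3b were used with GRCh38. The annotation and the strand setting are not given in the sources used here. No read counts were used, so the depth is unknown beyond the ratio of coverage to FPKM, and no interval was formed. TPM keep no depth. In at least 1 library, 6 members had a coverage under 1 although they reached 1 TPM there.

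Values were summed per gene number, of which 49 to 51 per table stood on more than 1 line, none of them a member. Of 46427 gene numbers, 96.3% were in RefSeq (GRCh38.p14), which supplied symbols and promoters, and all 39 members matched. Differences were log2((TPM + 1)/(TPM + 1)) with a minimum of 1 TPM in at least 1 library. With 1 library per group, no test was made within a line. An additive fit of line and siRNA over the 4 libraries (limma 3.58.1 in R 4.3.3, with a trend, Benjamini-Hochberg adjusted) was added after the data were seen. The calculations were checked on simulated data. Python 3.11.15, numpy 2.4.6, pandas 2.3.3 and matplotlib 3.10.9 were used. The naming rule covered all members, COP1, and of the lists each gene past 2-fold in a line or past 1.5-fold in the same direction in both. Of the lists, UGT1A1 alone met it. The other list genes given with values were chosen after their values were seen. Members and lists were chosen with earlier results of these data known. Alternatives were a pseudocount of 0.1, FPKM, coverage, median-of-ratios and upper-quartile scaling, no minimum, a minimum of 5 TPM and a 1.5-fold threshold. At least 1 TPM of an overlapping gene was seen for 14 members, all with one on the opposite strand.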

Additional observations from a re-analysis of the deposited data

Results flagged for a closer look

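The log2 difference of NR0B2 after COP1-siRNA was -0.76 in Huh7 and 0.08 in HepG2, and HepG2 minus Huh7 is 0.84. It was singled out because the lines lay on opposite sides of 0 and the Huh7 value was past 1.5-fold. With FPKM and the pseudocount of 1 kept, the Huh7 value was -0.56, under 1.5-fold, and as a plain TPM ratio it was -0.94. The difference between the lines was not tested, as each value rests on 1 library per group.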

How the results depend on the processing

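Of 145 values computed under an alternative, 144 stayed within the limits set for them (a single gene on its side of 2-fold with its sign kept, a count within 1.5 times, a median within 0.1), and 1 moved. These limits are wide for genes far from 2-fold, as RARG in Huh7 counted as kept at 0.22 from coverage beside 0.45. The count of 144 is therefore no measure of how stable single values are. In Huh7 the count of members past the threshold was 0 at 2-fold and 1 at 1.5-fold (NR0B2), by construction of the lower threshold. The NR0B2 difference in Huh7 ranged from -0.94 (plain TPM ratio, chosen after seeing the data) to -0.56 (FPKM). FPKM, with the pseudocount of 1 kept, thus left 0 members past 1.5-fold. The median of the members in Huh7, -0.04, had no stable sign, as it was 0.01 with FPKM and 0 with no minimum. Between the lines with NC-siRNA, the members higher in HepG2 and in Huh7 numbered 11 and 9 with a pseudocount of 0.1, 5 and 8 with a minimum of 5 TPM, 7 and 9 with median-of-ratios scaling, and 10 and 8 with upper-quartile scaling. Plain TPM ratios, with 1 TPM needed in both libraries, gave 5 and 9 of 29. No paired analysis was possible by replicate number, because the labels give none and each group has 1 library, so that no library could be left out within a line. The pairing of the siRNAs by line was fitted instead, an alternative chosen after seeing the data (limma, line and siRNA): it called 0 of 35 members for the siRNA and 28 for the line. Without replicates or read counts, a difference of the size seen for most members within a line cannot be set against an error.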
